A study of Homo sapiens with 6 samples.

Results

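The 10 histone deacetylase genes HDAC1 to HDAC10 were taken from the table of 26334 genes by their symbols, and all 10 were found there. They were compared between control (shLuc) and WDR5-silenced (shWDR5) cultures of MCF10DCIS.COM, a human breast cancer cell line of the MCF10A lineage that forms lesions resembling comedo ductal carcinoma in situ in mice. Poly-A RNA was sequenced from 3 shLuc and 3 shWDR5 libraries. Cells of both groups had been infected with the same pRSI-U6-UbiC-TagRFP-2A-Puro backbone, carrying a hairpin against luciferase or against WDR5, had been selected with puromycin at 3 µg/ml, and had been grown in DMEM/F12 with 5% horse serum. Every library is therefore from an infected, RFP-positive, puromycin-resistant culture of 1 cell line, and there was no uninfected group. The labels do not say how many WDR5 hairpins these cultures carried, and elsewhere in the study a pair of them was used as a pool.

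Histone deacetylases remove acetyl groups from lysines, mainly on histone tails, where acetylation accompanies open and transcribed chromatin. The zinc-dependent enzymes HDAC1 to HDAC10 fall into classes I, IIa and IIb. Class I (HDAC1, HDAC2, HDAC3 and HDAC8) is mostly nuclear. Class IIa (HDAC4, HDAC5, HDAC7 and HDAC9) moves between nucleus and cytoplasm and has little catalytic activity of its own. Class IIb (HDAC6 and HDAC10) is mostly cytoplasmic. WDR5 is a core subunit of the complexes that methylate histone H3 at lysine 4, a mark of active promoters. The comparison asks which deacetylase transcripts differ when WDR5 is silenced in breast cancer cells.

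Promoter windows are shown for 3 genes picked with the results in view. These genes are HDAC8, which fell, HDAC9, which rose and has several starts, and HDAC3, which shares its start region with a neighbouring gene. The windows are those of RefSeq on GRCh38.p14 from 250 bases before to 50 after the start, written 5′ to 3′ on the gene's own strand. Capitals mark matches on either strand to 4 core promoter motifs, the E-box CACGTG, the CCAAT box (CCAAT), the GC box (GGGCGG) and the TATA box (TATAAA).
HDAC3 promoter, minus strand, chr5:141636800-141637099: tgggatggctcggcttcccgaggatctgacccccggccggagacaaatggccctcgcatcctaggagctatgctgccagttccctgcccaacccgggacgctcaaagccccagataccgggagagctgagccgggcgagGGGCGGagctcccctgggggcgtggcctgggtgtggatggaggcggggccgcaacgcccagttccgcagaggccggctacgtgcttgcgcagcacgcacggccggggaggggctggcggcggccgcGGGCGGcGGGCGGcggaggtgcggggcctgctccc
HDAC8 promoter, minus strand, chrX:72572794-72573093: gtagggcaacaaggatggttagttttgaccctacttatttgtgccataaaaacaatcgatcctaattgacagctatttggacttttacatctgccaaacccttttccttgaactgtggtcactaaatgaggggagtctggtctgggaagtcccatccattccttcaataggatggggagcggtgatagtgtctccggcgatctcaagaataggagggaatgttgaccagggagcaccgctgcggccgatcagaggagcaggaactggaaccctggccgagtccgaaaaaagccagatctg
HDAC9 promoter, most upstream start, plus strand, chr7:18086575-18086874: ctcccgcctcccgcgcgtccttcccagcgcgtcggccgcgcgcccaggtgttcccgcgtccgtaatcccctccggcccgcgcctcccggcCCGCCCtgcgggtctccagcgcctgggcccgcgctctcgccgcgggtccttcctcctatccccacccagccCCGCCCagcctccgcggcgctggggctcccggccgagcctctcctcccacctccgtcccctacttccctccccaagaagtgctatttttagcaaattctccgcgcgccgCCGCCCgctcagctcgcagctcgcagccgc
HDAC9 promoter, one of the inner starts, plus strand, chr7:18495499-18495798: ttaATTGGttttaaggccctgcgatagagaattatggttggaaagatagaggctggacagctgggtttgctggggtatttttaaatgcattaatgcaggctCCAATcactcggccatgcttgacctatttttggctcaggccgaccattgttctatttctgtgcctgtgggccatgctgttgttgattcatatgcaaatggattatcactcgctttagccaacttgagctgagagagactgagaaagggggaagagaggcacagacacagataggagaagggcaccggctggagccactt

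The HDAC3 window was 74.0% G and C and held 3 GC boxes, and the HDAC8 window was 49.3% G and C and held none of the 4 motifs. The outer HDAC9 window was 75.0% G and C with 3 GC boxes, while the inner one was 47.3% G and C with 2 CCAAT boxes and no GC box. The median over all 35116 windows was 58.7% G and C. Windows were matched for 9 of the 10 genes, HDAC5 being the exception, and gave 19 windows because some genes have several starts. Over those 19 windows CACGTG was found in 1 (HDAC4), CCAAT in 7, GGGCGG in 8 and TATAAA in 0, while among all windows the shares were 7.3%, 34.6%, 45.0% and 11.5%. Several of the 19 windows overlap or belong to the same gene, so they are not independent.

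The libraries held 38218108 to 57640167 counts, and 16117 genes passed the count filter, among them all 10 deacetylase genes. A single member had 442 to 9085 counts in a library, for which counting error alone is 4.76% and 1.05% of the value. The silenced gene itself stood at 16.5, 15.2 and 16.1 RPKM (read counts scaled to the gene's exon length in kilobases and to library size) in shLuc replicates 1 to 3 and at 7.34, 7.65 and 6.52 RPKM in shWDR5. WDR5 was thus 2.22 times lower in shWDR5 (log2 fold change -1.15 ± 0.07 SE, adjusted p = 8.67e-07). Of 10 markers listed for basal-like breast epithelium, such as KRT5 and KRT17, 8 were higher in shWDR5, against 26.6% of all genes tested. CDH1 (E-cadherin) was lower, at 103 RPKM in shLuc and 50.3 RPKM in shWDR5 (log2 fold change -1.03). The summed level of the 10 ranged from 3707 to 4111 RPKM in shLuc and from 6089 to 6928 RPKM in shWDR5, and this sum hides the fall of CDH1. The 6 markers of leukocytes, fibroblasts and endothelium summed to 10.7 to 12.2 RPKM in shLuc and 8.84 to 10.5 RPKM in shWDR5, and among them PTPRC, COL1A2 and VWF did not exceed 12 counts in any library. Among the 6, CD68 gave the largest part of the sum, with means of 6.39 RPKM in shLuc and 5.97 RPKM in shWDR5 (adjusted p = 0.426). COL1A1 (3.72 RPKM in shLuc and 2.63 RPKM in shWDR5) and PECAM1 (1.46 and 0.890 RPKM) were lower in shWDR5. The part of these shifts in the results below was not tested. In bulk RNA, fewer cells expressing a gene and less RNA per cell cannot be told apart.

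By level per exon length, class I transcripts dominated. In shLuc, HDAC3 was highest at 42.8 ± 2.2 RPKM (SD, n = 3), followed by HDAC1 at 38.3 ± 2.2, HDAC2 at 24.2 ± 1.0 and HDAC7 at 21.0 ± 1.8 RPKM. HDAC10 (9.25 ± 1.00), HDAC6 (7.02 ± 0.40) and HDAC9 (6.64 ± 0.73) formed a middle group, and HDAC5 (4.67 ± 0.37), HDAC8 (4.51 ± 0.12) and HDAC4 (1.71 ± 0.09 RPKM) were lowest. The top and bottom of this order lay 24.98-fold apart in shLuc and 25.4-fold apart in shWDR5. In shLuc, HDAC6 and HDAC9, and likewise HDAC5 and HDAC8, overlapped across the 3 libraries and were not separated, whereas every other pair of neighbours was. In shWDR5, HDAC9 moved up past HDAC6 and HDAC10, HDAC8 and HDAC5 exchanged places, and the overlapping neighbours were HDAC3 with HDAC1, HDAC2 with HDAC7, and HDAC8 with HDAC5. Against all genes tested, the members' mean levels lay between the 32.8th percentile (HDAC4) and the 91.1st percentile (HDAC3). The deposited gene length sums every annotated exon, so RPKM understates a gene whose long or rare exons are little used.

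**Figure D1:**
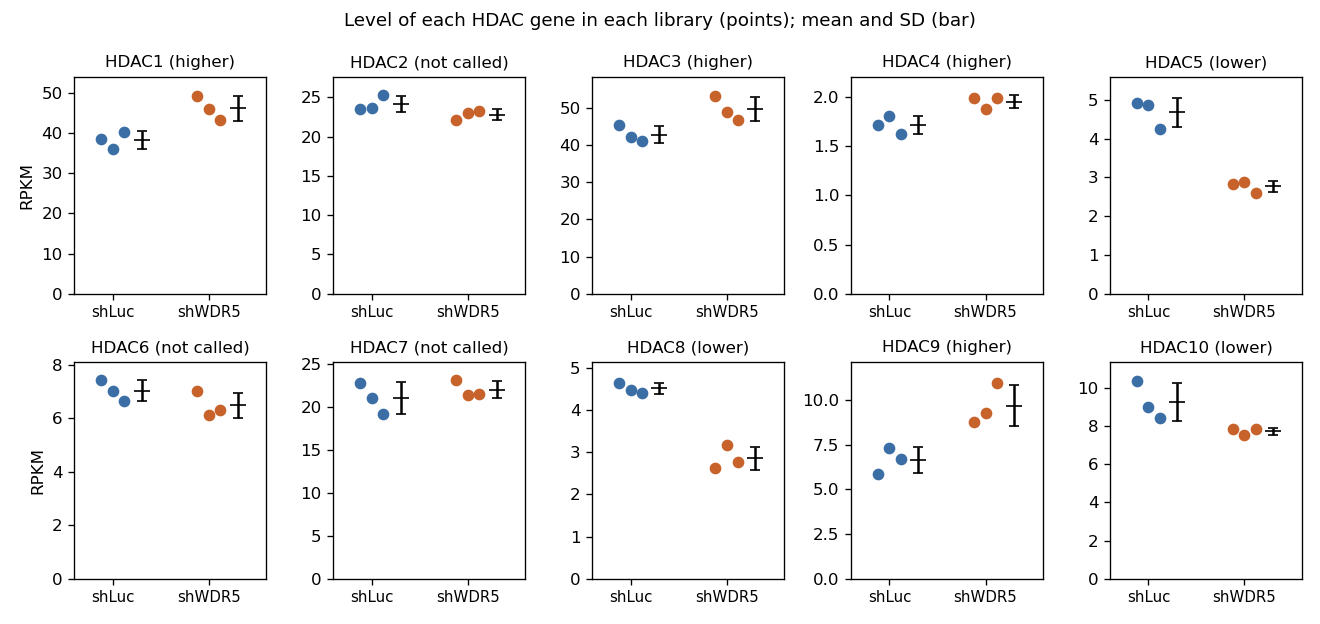
Level of each histone deacetylase gene (RPKM, linear axis from 0) in the 3 shLuc (blue) and 3 shWDR5 (orange) libraries, with replicates 1, 2 and 3 from left to right and the mean with its SD (n = 3) as a bar. HDAC5 and HDAC8 lie clearly lower and HDAC9 higher in all shWDR5 libraries, while HDAC6 and HDAC7 overlap between groups.

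Silencing of WDR5 was accompanied by lower HDAC5, HDAC8 and HDAC10 transcripts and by higher HDAC1, HDAC3, HDAC4 and HDAC9 transcripts, while HDAC2, HDAC6 and HDAC7 did not pass the threshold of an adjusted p of 0.05. At this threshold the falls of HDAC5 and HDAC8 and the rises of HDAC9 and HDAC1 kept their calls in all 13 alternative fits. In all, 4 members were higher and 3 lower. Among all genes tested, 56.5% were called in either direction, 26.6% higher and 29.9% lower, so a share of 7 in 10 is close to that background. The libraries of the groups did not overlap for 8 of 10 members, against 62.3% of all genes. The members' median log2 fold change was -0.01, as was that of all genes. With the added demand of an absolute log2 fold change of at least 0.6 and a level above 0.5 RPKM, 2 members remained, HDAC5 and HDAC8, and 18.4% of all genes.

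Class I holds the catalytic subunits of the large nuclear corepressor complexes. HDAC1 (build hg19 here and for the genes that follow, chr1:32757708-32799224, plus strand, 14 merged exon blocks), which with its close relative HDAC2 serves the NuRD, SIN3 and CoREST complexes, stood at 38.6, 36.0 and 40.3 RPKM in shLuc and at 49.3, 46.0 and 43.2 RPKM in shWDR5. All shWDR5 libraries lay above all shLuc libraries. The difference was 20.4% (95% interval 8.64 to 33.5%; log2 fold change 0.27 ± 0.07 SE, adjusted p = 0.00593). HDAC2 (chr6:114257320-114292359, minus strand) stood at 23.5, 23.7 and 25.4 RPKM in shLuc and at 22.1, 23.1 and 23.3 RPKM in shWDR5. Its groups did not overlap, but the difference of -5.68% (95% interval -13.2 to 2.52%) did not pass the threshold (adjusted p = 0.212). Within a library the level of HDAC1 over that of HDAC2 was 1.58 ± 0.06 (SD, n = 3) in shLuc and 2.03 ± 0.19 in shWDR5, a ratio chosen after the values were seen and not tested.

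HDAC3, the enzyme of the NCOR corepressor (chr5:141000443-141016423, minus strand), stood at 45.3, 42.1 and 41.0 RPKM in shLuc and at 53.3, 49.0 and 46.8 RPKM in shWDR5. The lowest shWDR5 library lay just above the highest shLuc library. The rise of 16.0% (95% interval 4.80 to 28.4%; adjusted p = 0.0177) lost its call when shLuc replicate 2 (adjusted p = 0.0621), shLuc replicate 3 (0.0630) or shWDR5 replicate 1 (0.0621) was left out, and without scaling factors (0.0558). Its neighbour RELL2, a gene of the RELT family, starts 94 bases away on the opposite strand with no shared exon, and RELL2 was lower in shWDR5 (log2 fold change -0.31 ± 0.08 SE, adjusted p = 0.00864), in the opposite direction to HDAC3. The HDAC3 promoter window printed above is from the other build, and positions were not carried between builds.

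HDAC8 (chrX:71549366-71792953, minus strand), which works outside the large corepressors and removes the acetyl group from the cohesin subunit SMC3, stood at 4.65, 4.48 and 4.40 RPKM in shLuc and at 2.62, 3.16 and 2.76 RPKM in shWDR5. The groups were far apart relative to their spread. The level fell by 36.7% (95% interval -44.3 to -28.1%; log2 fold change -0.66 ± 0.08 SE, adjusted p = 7.55e-05), and the log2 value stayed between -0.75 and -0.60 in all 13 alternatives. The fall of HDAC8 and the rises of HDAC1 and HDAC3 all fall within class I, whose summed level was 109.9 ± 3.1 RPKM in shLuc and 121.5 ± 5.6 RPKM in shWDR5.

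Class IIa members bind MEF2 transcription factors and are kept in the cytoplasm by 14-3-3 proteins once phosphorylated. HDAC5 (chr17:42154121-42201014, minus strand) gave the largest change of the 10 genes. It stood at 4.92, 4.85 and 4.25 RPKM in shLuc and at 2.82, 2.88 and 2.60 RPKM in shWDR5, so that the groups did not overlap. The fall was by 40.8% (95% interval -47.6 to -33.1%; log2 fold change -0.76 ± 0.08 SE, adjusted p = 2.19e-05), and 83.5% of all genes tested changed less.

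HDAC9 (chr7:18126572-19036992, plus strand) changed in the opposite direction. The gene spans 910.4 kb and also makes a form without the deacetylase domain, which gene-level counts cannot separate. It stood at 5.87, 7.33 and 6.73 RPKM in shLuc and at 8.80, 9.27 and 10.96 RPKM in shWDR5, with no overlap but with the widest spread of the members in shWDR5 (coefficient of variation 11.8%). The rise was 45.8% (95% interval 25.3 to 69.5%; log2 fold change 0.54 ± 0.10 SE, adjusted p = 0.000845). The log2 values lay between 0.44 and 0.61 over all 13 alternatives. The counts do not say from which of the RefSeq starts, outer or inner, the additional HDAC9 reads came.

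HDAC4 (chr2:239969864-240322643, minus strand), the least abundant member, stood at 1.72, 1.80 and 1.62 RPKM in shLuc and at 1.99, 1.88 and 1.99 RPKM in shWDR5. The groups did not overlap, yet the difference was small at 13.9% (95% interval 2.24 to 27.0%; adjusted p = 0.0417). The call held in only 5 of 13 alternatives, with adjusted p between 0.0212 and 0.124. It was lost without each of shLuc replicates 1 and 3 and each shWDR5 replicate. HDAC7 (chr12:48176494-48213763, minus strand), the most abundant class IIa gene, stood at 22.8, 21.0 and 19.1 RPKM in shLuc and at 23.1, 21.4 and 21.4 RPKM in shWDR5. Its groups overlapped, and the difference of 4.72% (95% interval -6.12 to 16.8%, adjusted p = 0.455) did not pass. HDAC7 shares 43 exon bases with SLC48A1 on the opposite strand, whose log2 fold change was -0.10 (adjusted p = 0.267). Reads in that stretch cannot be assigned without strand.

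The class IIa sum thus held opposite movements and was 34.0 ± 2.0 RPKM in shLuc and 36.4 ± 0.8 RPKM in shWDR5. The level of HDAC9 over that of HDAC5 within a library was 1.43 ± 0.21 in shLuc and 3.52 ± 0.61 in shWDR5 (SD, n = 3), a pair chosen after the values were seen and not tested.

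Class IIb joins a pair of enzymes with mainly non-histone substrates. HDAC6 (chrX:48660487-48683380, plus strand), which deacetylates tubulin and cortactin and binds ubiquitin, stood at 7.42, 7.01 and 6.63 RPKM in shLuc and at 7.02, 6.12 and 6.31 RPKM in shWDR5. The groups overlapped, and the difference of -7.77% (95% interval -17.8 to 3.51%) did not pass (adjusted p = 0.212). HDAC10 (chr22:50683613-50689834, minus strand), a polyamine deacetylase, stood at 10.4, 8.98 and 8.42 RPKM in shLuc and at 7.83, 7.52 and 7.85 RPKM in shWDR5. All shWDR5 libraries lay below all shLuc libraries, and the level fell by 16.5% (95% interval -26.5 to -5.24%; log2 fold change -0.26 ± 0.08 SE, adjusted p = 0.0201). This call rested in part on shLuc replicate 1, the highest library, without which the log2 fold change was -0.16 (adjusted p = 0.0944). It was also lost without shWDR5 replicate 2 (adjusted p = 0.0753).

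**Figure D2:**
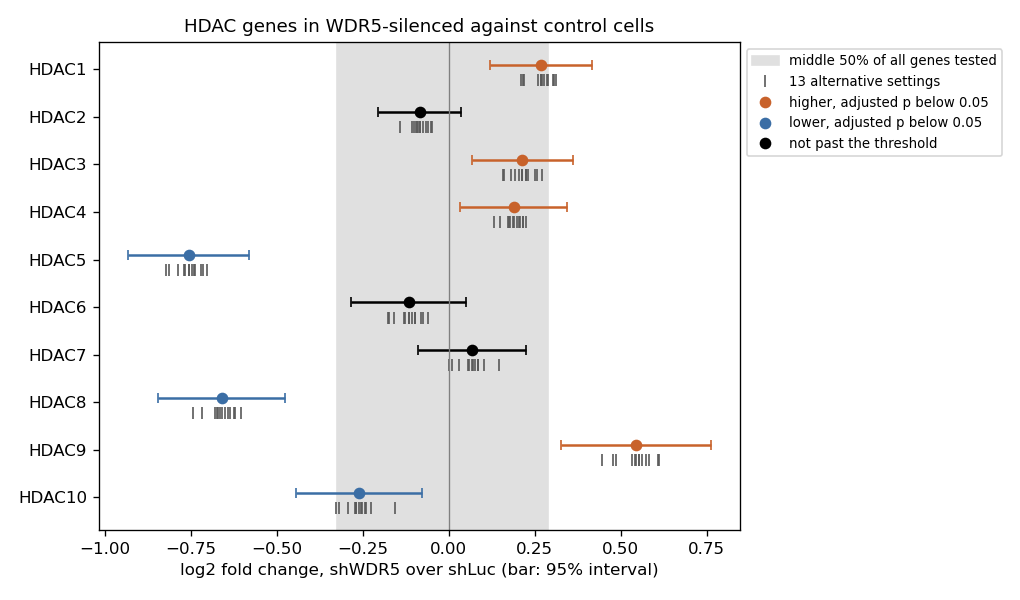
Log2 fold change of each histone deacetylase gene, shWDR5 over shLuc, with its 95% interval (coloured where the adjusted p was below 0.05), the values under 13 alternative settings (ticks) and the middle 50% of all 16117 genes tested (grey). HDAC5, HDAC8 and HDAC9 lie outside the grey band, and the other members inside it.

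The summed level of the 10 genes was 160.1 ± 4.4 RPKM in shLuc and 172.1 ± 6.0 RPKM in shWDR5 (SD, n = 3). Class I made up 68.6 ± 1.5% of it in shLuc and 70.6 ± 1.0% in shWDR5, with overlapping libraries. Class IIa made up 21.2 ± 1.1% and 21.2 ± 0.9%. Class IIb was the only class whose share did not overlap between groups, at 9.53 to 10.8% in shLuc and 8.01 to 8.47% in shWDR5. These shares are descriptions and were not tested.

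**Figure D3:**
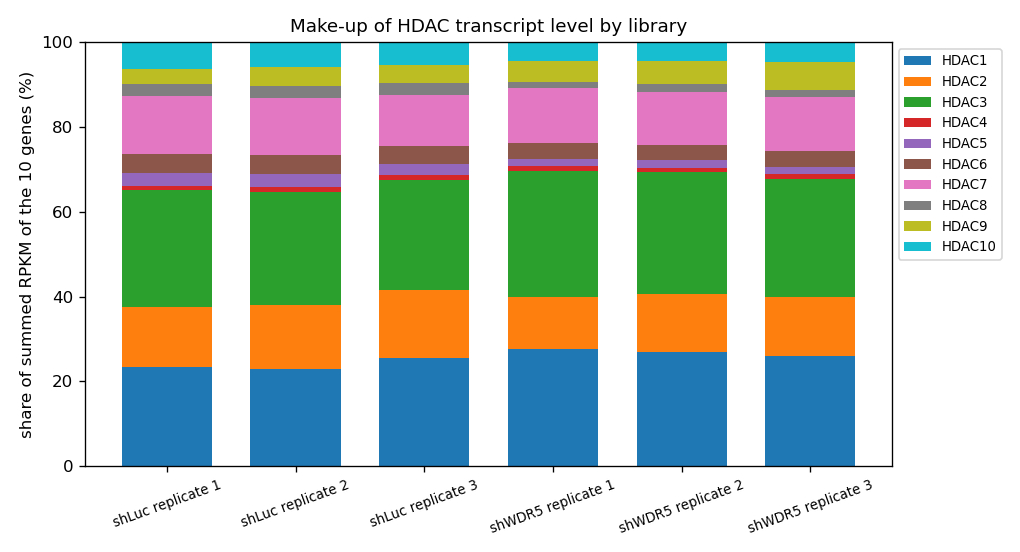
Share (%) of each gene in the summed RPKM of the 10 histone deacetylase genes, 1 bar per library. HDAC3 and HDAC1 are the largest segments of every bar, and the HDAC10 and HDAC5 segments are thinner in the 3 shWDR5 libraries.

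Genes that work with the deacetylases were described from 12 lists holding 113 genes, of which 112 were tested. Over all lists 34 genes were higher and 34 lower (60.7% called, against 56.5% of all genes), with a median log2 fold change of -0.02 against -0.01. In the NuRD complex, the nucleosome remodeller of HDAC1 and HDAC2, 5 of 11 genes were higher, led by MTA1 (log2 fold change 0.51), GATAD2A (0.42) and MTA2 (0.32), and 4 were lower, led by the histone-binding RBBP7 (-0.50), MTA3 (-0.46) and the ATPase CHD4 (-0.27). The list median was -0.07. In the SIN3 complex, 2 of 14 genes were higher (BRMS1 0.48 and SAP18 0.19) and 2 lower (SUDS3 -0.42 and SAP130 -0.25), with a median of 0.03. The scaffold proteins SIN3A (-0.05, adjusted p = 0.465) and SIN3B (0.15, adjusted p = 0.0735) did not pass.

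In the CoREST complex 3 of 9 genes were higher (HMG20B 0.36, PHF21A 0.33 and RCOR3 0.26) and 3 lower (RCOR2 -0.97, GSE1 -0.19 and ZMYM3 -0.15), with a median of -0.05, while the demethylase KDM1A stood at -0.05 (adjusted p = 0.469). RCOR2 was scarce, at 0.598 RPKM in shLuc and 0.303 RPKM in shWDR5. Among the partners of HDAC3, NCOR1 (-0.19) and TBL1X (-0.36) were lower. This list is not reported in full here, so these falls do not describe the corepressor as a whole. Of the 3 MiDAC genes, TRERF1 was lower (-0.21), and the median was -0.09. Without shLuc replicate 2 or shWDR5 replicate 3, 0 MiDAC genes were called.

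For class IIa, 8 of 21 tested partners were higher and 6 lower, with a median of 0.09. Those that rose most were SIK1 (0.70), a kinase that phosphorylates class IIa enzymes, the 14-3-3 protein SFN (0.65), itself one of the epithelial markers above, and the 14-3-3 protein YWHAB (0.34). Those that fell most were the calmodulin-dependent kinases CAMK1 (-1.33) and CAMK4 (-0.99) and the transcription factor MEF2C (-0.54), which was scarce at 0.276 RPKM in shLuc. MEF2D, more abundant, was higher (0.26), and MEF2B did not pass the count filter.

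In the list around HDAC8, no gene was higher and 4 of 8 were lower, with a median of -0.37. Among all genes tested, 56.5% were called, 26.6% higher and 29.9% lower. With 1 library left out, 4 to 6 genes of this list were called. The cohesin ring subunits SMC1A (-0.88), RAD21 (-0.73) and SMC3 (-0.55) and the SMC3 acetyltransferase ESCO2 (-1.18) fell, and so did HDAC8. The acetyltransferase ESCO1 (0.07, adjusted p = 0.601), the loader NIPBL (-0.17, adjusted p = 0.0584) and the subunits STAG1 (-0.07) and STAG2 (-0.19) did not pass. Among 6 genes around HDAC6, 4 were higher, led by the ubiquitin receptor SQSTM1 (0.71), the segregase VCP (0.33) and the substrate cortactin, CTTN (0.24), while the chaperone HSP90AA1 was lower (-0.80). The median was 0.23. Of 10 polyamine genes listed for HDAC10, 3 were higher (the spermidine synthase SRM 0.57, the ornithine decarboxylase ODC1 0.47 and the acetyltransferase SAT1 0.38) and 2 lower (OAZ2 -0.41 and SMOX -0.26), with a median of -0.03.

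Enzymes that add acetyl groups also moved both ways. Of 12 acetyltransferases 3 were higher, EP300 (0.43), CREBBP (0.43) and KAT6B (0.30), and 5 lower, led by HAT1 (-0.70), which acetylates newly made histone H4, KAT2B (-0.44) and KAT8 (-0.21), with a median of -0.04. The count of 8 dropped to 5 without shLuc replicate 2, shWDR5 replicate 2 or shWDR5 replicate 3. Among bromodomain proteins, which read acetylated lysines, BRD2 (0.28) was higher and BRD7 (-0.32) lower. Among the other deacetylases, the sirtuins SIRT5 (0.37), SIRT6 (0.34) and SIRT7 (0.21) were higher and SIRT4 (-0.78), SIRT2 (-0.27) and SIRT3 (-0.27) lower. The median over 8 genes was 0.09. SIRT4 was scarce, at 0.419 RPKM in shLuc and 0.239 RPKM in shWDR5. For SIRT7 the groups overlapped (adjusted p = 0.0438). The count of 6 dropped to 3 without shLuc replicate 3 and to 3 without shWDR5 replicate 3. HDAC11, the only class IV enzyme, stood at 3.01 RPKM in shLuc and 3.46 RPKM in shWDR5 (0.20, adjusted p = 0.0943).

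**Figure D4:**
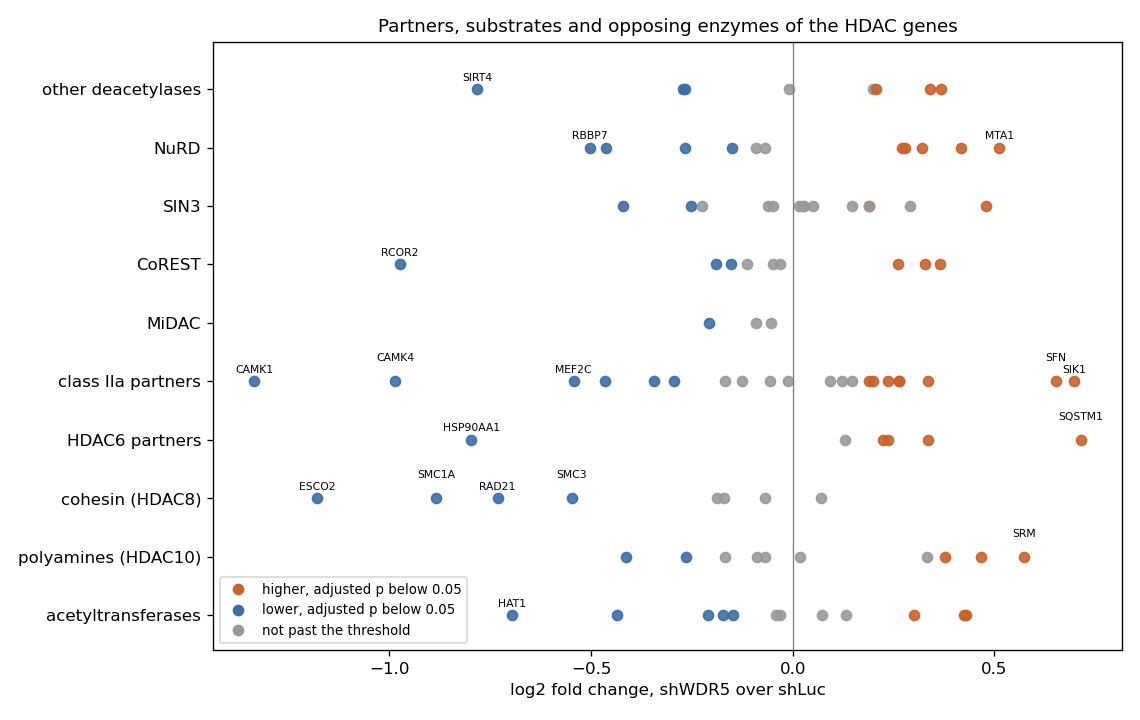
Log2 fold change, shWDR5 over shLuc, of the tested genes in 10 of the lists around the histone deacetylases, 1 point per gene, coloured by call and named beyond 0.5 in either direction. Most lists spread to both sides of 0, and the cohesin list around HDAC8 has 4 called falls and no called rise. Among all genes tested, 29.9% were called lower and 26.6% higher.

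The HDAC2 locus also holds LOC101927768, an RNA on the opposite strand whose start lies 1494 bases from that of HDAC2 and which shares no exon with it. It had 3 to 13 counts in a library and was higher in shWDR5 (log2 fold change 1.14 ± 0.36 SE, adjusted p = 0.0196), a change resting on very few reads. The genes whose log2 CPM (library-scaled counts) followed HDAC5, the member of smallest p, most closely over the 6 libraries were UBE2R2, NUP93 and SLC8A1, each with a Pearson r of 0.999, and each was lower in shWDR5 (log2 fold changes -0.44, -0.41 and -1.33). In all, 309 genes had an r above 0.99, and the 6 points share the division into groups.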

How the data were processed

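Per the labels, poly-A RNA for 3 shLuc and 3 shWDR5 libraries was prepared with the TruSeq RNA kit. The authors deposited raw counts per gene, and their processing notes name TopHat2 2.1.0, featureCounts, edgeR 3.2.2 and hg19 (the annotation release and strand setting are not given in the sources used here). A second deposited table holds only fold changes, F, p and FDR of the authors' own comparison and was not used. Counts were tested across all genes with edgeR 4.0.16 in R 4.3.3 (filterByExpr, TMM, quasi-likelihood F test, Benjamini-Hochberg, called at an adjusted p below 0.05). SE is the absolute log2 fold change over the square root of F. RPKM used TMM-scaled library sizes and the deposited gene lengths. The code was tested on simulated data with 200 genes changed, far fewer than the 9112 genes called here. In that test the share of false calls exceeded the nominal level, so calls near the threshold are less certain than their adjusted p. Alternatives were RLE, upper-quartile or no scaling, DESeq2 1.42.0, the edgeR exact test, no count filter, a stricter call, a replicate block and each library left out. DESeq2 was run without the filter.

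The members and lists were chosen with earlier results of these data known. Named genes were WDR5, the members, up to 3 largest called rises and falls per list, the 3 genes most like the called member of smallest p, and overlapping or antisense genes. RELL2, and list genes named with a value that did not pass or beyond those 3, were chosen after their values were seen. No source states that the 3 libraries of a group came from separate cultures for this assay, so p-values measure the spread between these libraries. Replicate libraries differed beyond sampling noise in every pair. The coefficient of variation between the libraries of a group was 2.38 to 11.8% for the members, against a counting error of 1.05 to 4.76%, and for some members, such as HDAC8 in shLuc and HDAC10 in shWDR5, it did not exceed counting error. A few list genes are not reported here.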

Additional observations from a re-analysis of the deposited data

How the results depend on the processing

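The log2 fold changes of the 10 histone deacetylase genes and of WDR5 kept their direction in all 143 values from 13 alternatives, and 129 stayed on the same side of the threshold. At an adjusted p of 0.05 the calls of WDR5, HDAC1, HDAC5, HDAC8 and HDAC9 held in all 13. Without scaling factors HDAC3 (0.16) and HDAC4 (0.13) lost their calls, and HDAC4 lost its call with DESeq2 (0.20) and with no count filter (0.18). Leaving out 1 library at a time gave 0.16 to 0.27 for HDAC3, 0.15 to 0.22 for HDAC4 and -0.33 to -0.16 for HDAC10. The cause was not tested, though each such fit has fewer libraries. The stricter call reduced the genes called from 9112 to 2962 (1274 higher, 1688 lower) and the members called from 7 to 2 (HDAC5 and HDAC8), so HDAC1 and HDAC9 did not pass it. The order of members by RPKM was the same with plain library sizes. Scaling choices moved the median gene by at most 0.06 on the log2 scale.

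Whether the replicate numbers pair the samples is not settled by the values. Deviations from the group means correlated at 0.37, 0.04 and 0.12 for replicates 1, 2 and 3. The value for replicates 1 was the highest of all pairings, while shLuc replicate 2 with shWDR5 replicate 3 gave 0.21. With a replicate block, 10412 genes, 79 genes of the partner lists and 7 members were called, the same members as without it. The SIN3 list went from 4 to 8 called. The SE of each member was smaller with the block, for HDAC3 0.04 against 0.07. Not every library correlated best with its own number.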
